A study of Mus musculus with 68 samples.

Results

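The second pharyngeal arch (PA2) of mouse embryos labelled Hoxa2-/- was compared with that of wildtype embryos at E10.0, with 5 libraries in each group. The 10 libraries, of 68 in the series, were chosen by their labels for arch, genotype and stage, and the comparison runs over all genes measured. Each library is 1 arch of 1 embryo, dissected by hand as a whole arch, so it holds neural crest mesenchyme together with mesoderm, epithelium, vessels and blood. Both genotypes were on the strain CBA/Ca/J x C57BL/10, no other agent or treatment is named, and the allele behind the label Hoxa2-/- is not named. PA1 and PA2 came from a single embryo, and polyadenylated RNA was amplified as SMART-seq cDNA and made into Nextera XT libraries. Wildtype libraries of the other stages (E9.0, E9.5, E10.5) stood apart from the rest of the series: Ski ran from 26.3 to 108 CPM (counts scaled by library size) in those 24 libraries and from 9.28 to 22.8 in the 24 libraries labelled Hoxa2-/- of the same stages. In PA2 at E10.0 it ran from 9.72 to 15.5 CPM in wildtype and from 11.9 to 16.3 with the label Hoxa2-/-, so both groups lay on the same side of that division.

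Hoxa2 encodes a homeodomain transcription factor and is the Hox gene that neural crest cells of PA2 need to form hyoid structures instead of a second set of jaw structures. Hox proteins bind DNA together with homeodomain partners of the TALE class, the Pbx and Meis proteins. PA1, from which the jaws form, lacks Hox expression in its crest and serves here as the neighbouring arch of the same embryos.

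The upstream sequences of 4 genes on which the results turn are shown first, because they are Hoxa2 itself and the 3 genes with the smallest p in this comparison. Each runs over the 250 bases that end at the RefSeq start site (build GRCm38.p6), 5′ to 3′ on the strand of the gene. The RefSeq start sites of 3110099E03Rik and Meis2 lie inside the GENCODE spans of these genes given below, and distances between genes use the GENCODE starts. Capitals mark matches to TGATTNAT, a site type bound by Hox with Pbx, and to TGACAG, a site type bound by Meis, on either strand.
Hoxa2, chr6:52164832-52165081, minus strand: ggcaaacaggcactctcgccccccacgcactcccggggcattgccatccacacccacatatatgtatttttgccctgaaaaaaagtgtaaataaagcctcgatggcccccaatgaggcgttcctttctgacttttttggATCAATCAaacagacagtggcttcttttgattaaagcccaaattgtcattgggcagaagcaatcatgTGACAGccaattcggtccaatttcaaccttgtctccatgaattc
3110099E03Rik, chr2:115512202-115512451, minus strand: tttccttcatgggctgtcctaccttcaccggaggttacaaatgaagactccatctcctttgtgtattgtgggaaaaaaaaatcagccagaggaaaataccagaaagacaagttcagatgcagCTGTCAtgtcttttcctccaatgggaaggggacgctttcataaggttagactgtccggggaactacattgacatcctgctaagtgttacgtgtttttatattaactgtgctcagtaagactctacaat
Meis2, chr2:116064620-116064869, minus strand: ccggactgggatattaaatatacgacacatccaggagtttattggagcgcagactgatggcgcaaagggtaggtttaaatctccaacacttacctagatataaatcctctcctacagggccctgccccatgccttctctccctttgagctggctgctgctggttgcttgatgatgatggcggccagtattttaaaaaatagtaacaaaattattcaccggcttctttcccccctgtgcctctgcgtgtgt
Kcna5, chr6:126535556-126535805, minus strand: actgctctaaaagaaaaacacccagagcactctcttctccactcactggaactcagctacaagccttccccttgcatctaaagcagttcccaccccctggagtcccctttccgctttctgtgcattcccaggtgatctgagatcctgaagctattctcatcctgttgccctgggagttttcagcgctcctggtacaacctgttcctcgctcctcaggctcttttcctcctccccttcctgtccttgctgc
In Hoxa2 the first match in capitals is to TGATTNAT on the opposite strand, 111 bases before the start site, and the second is TGACAG, 44 bases before it. The match in 3110099E03Rik is TGACAG on the opposite strand, 128 bases before the RefSeq start. Meis2 and Kcna5 held none of the motifs searched, which also included TAATTA, in their windows of 300 bases (250 before to 50 after the start). Of 32851 RefSeq promoter windows of that length, 3.22% held TGATTNAT, 19.2% held TGACAG, 5.29% held TAATTA and 25.6% held at least 1 of them. RefSeq promoters were matched for 10 of the 15 genes that passed the test below, and 2 of the 10 held a match. Such matches are descriptions of letters, and no binding was measured here.

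Depth was 13390985 to 14558318 reads per library labelled Hoxa2-/- and 8912251 to 15253949 per wildtype library, and 3 reads equalled 0.190 to 0.328 CPM. Replicates differed by more than counting noise, with a chi-square per degree of freedom of 6.25 to 14.9 over 20 replicate pairs. Markers of arch mesenchyme were abundant in both groups: Prrx1 ran from 106 to 142 CPM with the label and from 86.4 to 109 in wildtype, and Twist1 from 36.2 to 46.3 and from 30.9 to 43.4. The PA2 gene Nkx2-6 stood at 8.08 to 23.4 CPM in the 10 libraries, against means of 0.448 and 0.242 in PA1. Xist stood above the mean level of Y-linked genes in 2 of 5 labelled and 3 of 5 wildtype libraries. Wildtype replicate 3 and labelled replicate 4 stood apart in transcripts of yolk sac endoderm, at summed 268 and 441 CPM against a median of 104 over the 20 libraries of E10.0. Wildtype replicate 3 also had the smallest share of its CPM in genes of at least 5000 exonic bases, 38.6%. That share ran from 41.6% to 42.9% in the labelled PA2 libraries and from 38.6% to 41.9% in wildtype PA2.

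**Figure D1:**
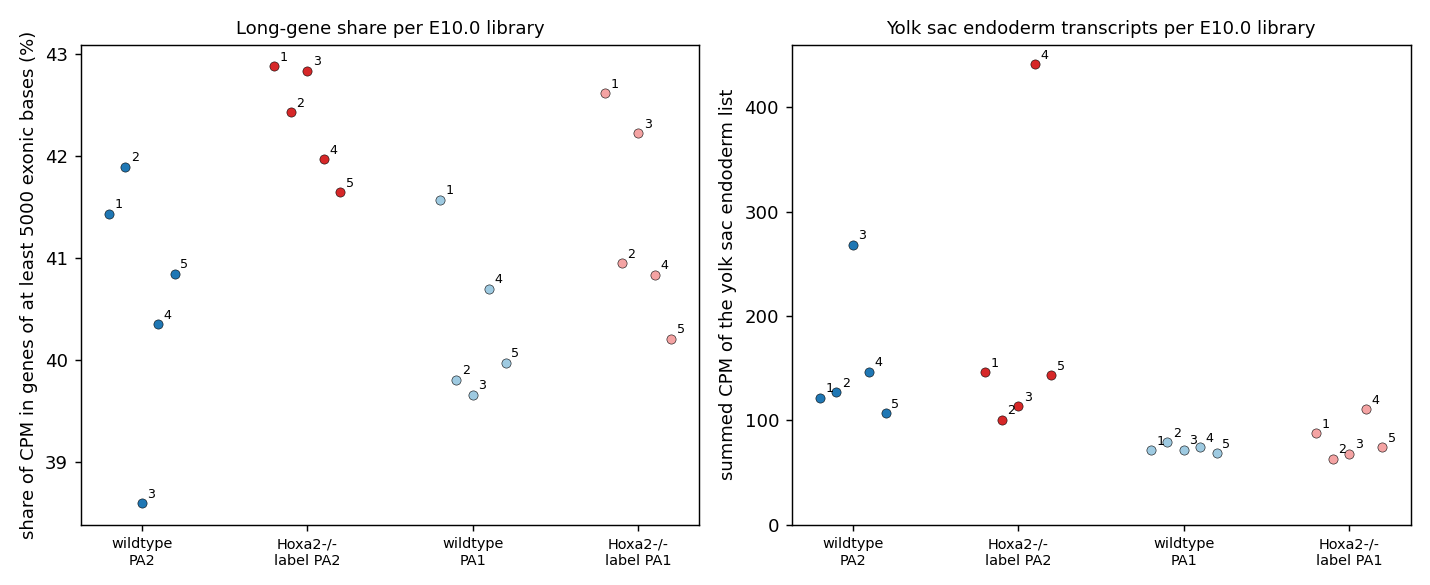
Left, share of CPM (percent) in genes of at least 5000 exonic bases; right, summed CPM of the yolk sac endoderm list; each point is 1 library of E10.0, numbered by replicate, in the 4 groups of arch and genotype label. Wildtype PA2 replicate 3 is the lowest point on the left at 38.6%, and PA2 replicates 3 (wildtype, 268 CPM) and 4 (labelled, 441 CPM) stand above the other libraries on the right.

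The targeted gene was read first. Hoxa2 (ENSMUSG00000014704, chr6:52162417-52164831, minus strand) stood at 88.2, 113, 111, 88.8 and 87.2 CPM in the 5 libraries labelled Hoxa2-/- and at 45, 53.7, 42.7, 50.4 and 45.5 CPM in wildtype PA2. Every labelled library thus lay above every wildtype library. The means were 97.7 ± 13.3 and 47.5 ± 4.49 CPM (SD, n = 5 each), a log2 difference of 1.02 on the scale of log2(CPM + 1) (SE 0.16, limma adjusted p 0.00011). An exact two-sided permutation test of the 10 libraries gave p = 0.00794, the smallest that 5 against 5 allows. In PA1 of the same embryos Hoxa2 did not exceed 0.628 CPM. The label names a genotype and not a level of RNA, and the allele is not named. The values are totals per gene that do not show which exon the reads came from. Whether a transcript of a targeted allele was counted was not tested. The label is therefore given as deposited throughout, as "labelled Hoxa2-/-" or "labelled libraries". With a pseudocount of 0.25 in place of 1 the adjusted p of Hoxa2 was 0.206.

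Across the genome 15 of 18428 genes tested passed an adjusted p of 0.05, or 0.0814%. Of these, 3 were higher (0.0163%) and 12 lower (0.0651%) in libraries labelled Hoxa2-/-. They are 10 protein-coding genes, 4 lincRNAs and 1 antisense RNA. The higher genes were Hoxa2, Csn3 and Itga4. Among the lower ones were the transcription factor genes Meis2, Meox1, Nr2f1 and Zfp703, the adhesion molecule Vcam1, the potassium channel Kcna5, the feedback inhibitor Errfi1 and 5 noncoding RNAs. All 3 higher genes and 9 of the 12 lower genes had groups that did not overlap, while over all genes tested 1.64% and 0.57% did not overlap in those directions. The median absolute log2 difference over all genes was 0.0973 with a median SE of 0.133, and 17 genes differed by at least 1. Each library was left out in turn: 6 of the 15 genes passed every time (3110099E03Rik, Kcna5, Meis2, Hoxa2, Vcam1 and Errfi1) and 9 lost the call at least once. The count was 9 without wildtype replicate 1, and other sets of libraries in the fit also moved it. The E10.0 libraries alone gave 31 (18 higher, 13 lower), with 12 of the 15 (not AI314278, G630016G05Rik and Hoxb3os) and with Meis1, Pitx1, Gbx2 and Sema3a among those added. The 2 compared groups alone gave 10, of which 7 were among the 15 (3110099E03Rik, Kcna5, Meis2, Hoxa2, Vcam1, Errfi1 and Csn3). The others were Meis1, Prr16 and Sema3a.

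**Figure D2:**
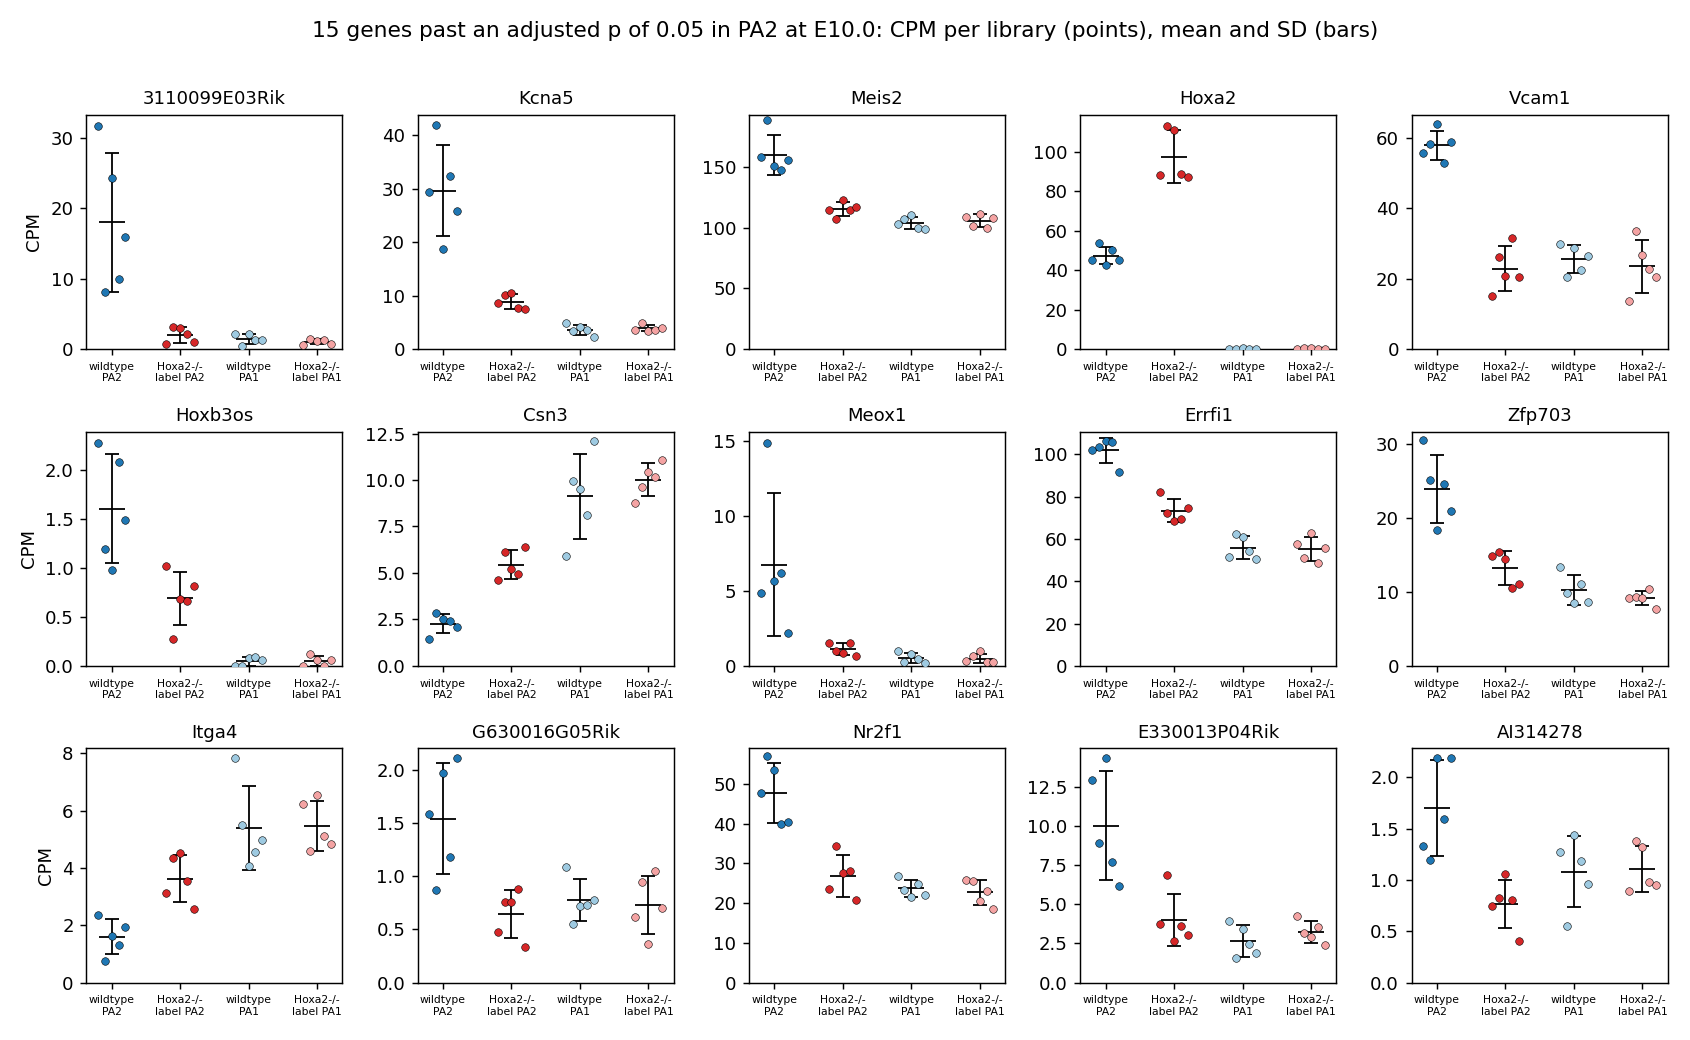
CPM of the 15 genes past an adjusted p of 0.05, 1 panel per gene, for each library (points) in wildtype PA2, labelled PA2, wildtype PA1 and labelled PA1 at E10.0, with the mean and SD (bars, n = 5); each axis starts at 0. Hoxa2, Csn3 and Itga4 are higher and the other 12 lower in labelled PA2 than in wildtype PA2, and the PA1 groups overlap in each panel.

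Among the TALE cofactors of Hox proteins 1 gene passed the adjusted threshold, on the lower side. Meis2 (chr2:115863064-116065839, minus strand), which encodes one of these partners, stood at 115, 107, 123, 114 and 117 CPM in labelled PA2 and at 158, 188, 151, 147 and 155 CPM in wildtype PA2. The labelled libraries all lay below the wildtype ones and within a narrow range. The means, 115 ± 5.89 and 160 ± 16.4 CPM (n = 5 each), gave a log2 difference of -0.47 (SE 0.06, limma adjusted p 6.3e-07), so that the labelled mean was 72% of wildtype. In PA1, where no difference was called, Meis2 ran from 99.5 to 112 CPM with the label and from 99 to 111 in wildtype.

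Meis1, its close relative, stood at 131 to 141 CPM in labelled PA2 and at 163 to 205 CPM in wildtype PA2, again without overlap. Its log2 difference of -0.45 was nearly that of Meis2, but with an SE of 0.13 it did not pass (unadjusted p 0.0016, limma adjusted p 0.377). That fit drew the spread from all 68 libraries. Meis1 was called in the fits on the E10.0 libraries alone and on the 2 compared groups alone. In the list of 11 TALE genes 1 was lower at the adjusted threshold (Meis2) and 2 at an unadjusted p under 0.05. In that direction 0.0651% and 3.08% of all genes passed. Other members ran without a shared direction, with log2 differences of -0.01 for Pbx3, -0.07 for Meis3 and 0.23 for Pknox2, and the median of the list was -0.01, beside 0.00 for all genes.

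Of the Hox list, 9 of 19 genes passed the filter on low values. Hoxa3, which neighbours Hoxa2, ran from 1.69 to 3.06 CPM in labelled PA2 and from 0.861 to 1.53 in wildtype, a log2 difference of 0.47 (unadjusted p 0.00049, limma adjusted p 0.237). Hoxaas2, a noncoding gene 843 bases from Hoxa2, had a log2 difference of 0.52 (limma adjusted p 0.24). Hoxb2 differed by 0.04, Hoxb1 by 0.21, Hoxb5 by 0.08 and Hoxd1 by -0.01, none past the threshold. Hoxb3os, an antisense RNA of the Hoxb cluster that overlaps Hoxb2, was lower at 1.02, 0.275, 0.68, 0.662 and 0.814 CPM against 2.28, 1.2, 0.983, 2.08 and 1.49 CPM. These groups overlapped, the log2 difference was -0.61 (SE 0.11, limma adjusted p 0.0045), and without wildtype replicate 1 it was -0.52 with an adjusted p of 0.0566. Strand use in counting is not given in the sources used here, so how reads of the stretch shared by Hoxb3os and Hoxb2 were assigned is not known.

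The gene with the smallest p lies in the same chromosomal region as Meis2. 3110099E03Rik, a lincRNA (chr2:115493513-115527744, minus strand) whose start lies 538 kb from that of Meis2, stood at 0.748, 3.09, 3.02, 2.13 and 1.02 CPM in labelled PA2 and at 31.7, 8.16, 24.2, 10 and 15.9 CPM in wildtype PA2. The labelled mean of 2 ± 1.09 CPM was 11.1% of the wildtype mean of 18 ± 9.89, with a log2 difference of -2.58 (SE 0.26, limma adjusted p 1.3e-09). Wildtype libraries differed widely among themselves, yet the lowest of them exceeded the highest labelled library. In PA1 it stood at means of 1.04 CPM with the label and 1.43 in wildtype.

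A further lincRNA, G630016G05Rik, starts 1.39 kb from Meis2 on the opposite strand. It stood at 0.476, 0.756, 0.755, 0.883 and 0.339 CPM in labelled PA2 and at 1.58, 0.87, 1.97, 1.18 and 2.11 CPM in wildtype, a log2 difference of -0.62 (SE 0.13, limma adjusted p 0.013). The groups overlapped by 1 library, and the adjusted p was 0.125 without wildtype replicate 3. BC052040, whose start lies 484 kb from that of Meis2, stood at 34.6 to 44.2 CPM and 43.4 to 54.4 CPM, a log2 difference of -0.34 (limma adjusted p 0.106). With 2700033N17Rik (-0.24) and Gm13991 (-0.26), neither past the threshold, all 6 genes tested with a start within 750 kb of the Meis2 start had negative differences, Meis2 included.

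Around Meis1, 8430419K02Rik differed by -0.41 (limma adjusted p 0.0774), 2900018N21Rik by -0.31 and 2610001A08Rik by -0.29, while Gm16141, Gm12020, Gm12026 and Glns-ps1 lay between -0.05 and 0.13. Of these, 2900018N21Rik and 2610001A08Rik lie within the Meis1 gene on its strand, and Gm16141 within it on the opposite strand. Whether reads of Meis1 transcripts were counted for them was not tested. The Meis2 and Meis1 regions were singled out after the values were seen, so no test of the regions was made.

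**Figure D3:**
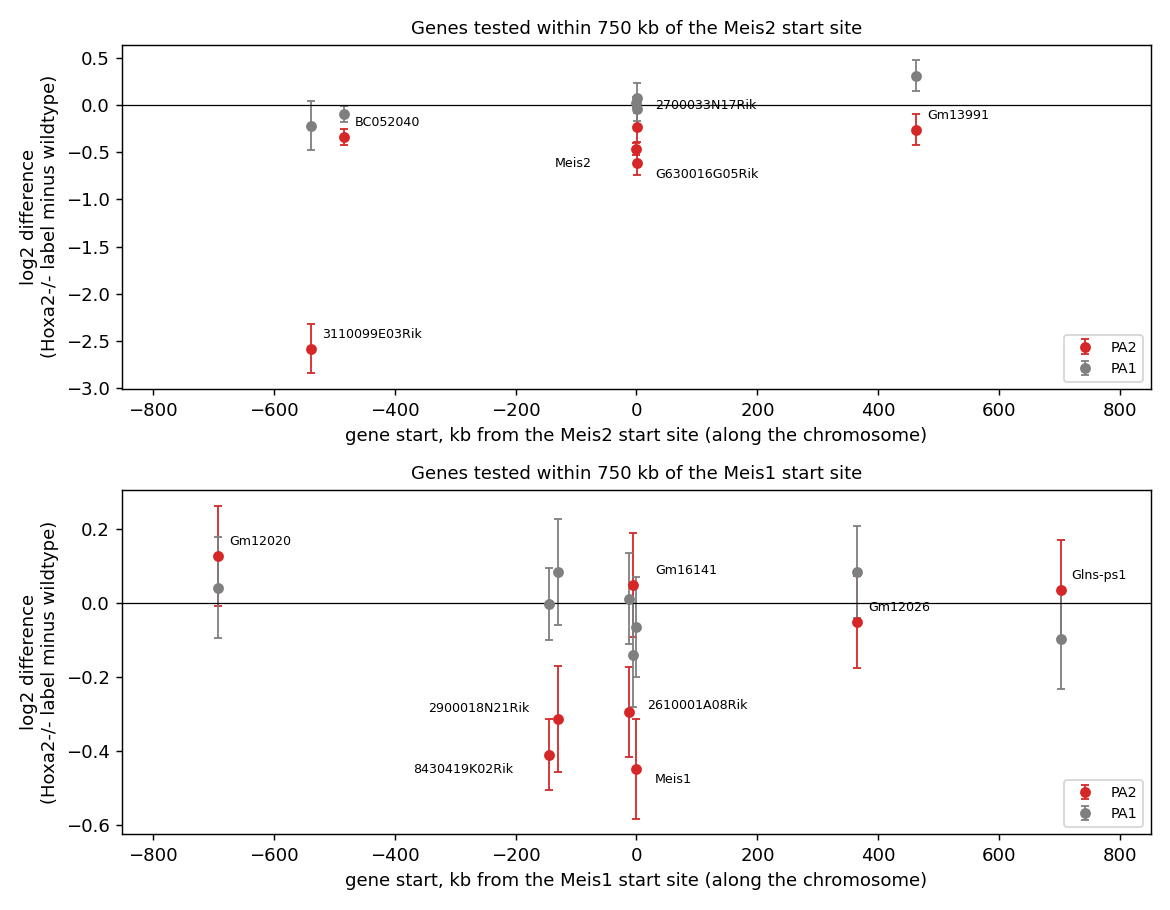
Log2 difference of CPM + 1 (labelled Hoxa2-/- minus wildtype, points, with SE as bars) in PA2 and PA1 at E10.0 for each gene tested within 750 kb of the Meis2 start (upper panel) and the Meis1 start (lower panel), against the distance of its start in kb. All 6 PA2 points lie below 0 around Meis2, led by 3110099E03Rik at -2.58, and 4 of 8 lie at or below -0.29 around Meis1. Those 4 include Meis1 itself and, within its span, 2900018N21Rik and 2610001A08Rik.

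A ligand of alpha4 integrin fell and the integrin subunit rose. Vcam1 (chr3:116109949-116129688), a cell surface protein that is a ligand of alpha4 integrins, stood at 15.2, 26.2, 20.9, 31.7 and 20.6 CPM in labelled PA2 and at 55.7, 58.2, 64.1, 52.9 and 58.8 CPM in wildtype. No library of one group reached the range of the other. The means of 22.9 ± 6.28 and 57.9 ± 4.17 CPM gave a log2 difference of -1.34 (SE 0.24, limma adjusted p 0.0026), and the labelled mean was 39.5% of wildtype. PA1 stood at means of 23.5 and 25.6 CPM, close to the level of labelled PA2.

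Itga4 (chr2:79255426-79333123), the alpha4 integrin subunit that binds Vcam1, moved in the other direction. It stood at 3.13, 4.33, 4.53, 3.53 and 2.58 CPM in labelled PA2 and at 2.34, 0.762, 1.64, 1.32 and 1.96 CPM in wildtype, a log2 difference of 0.84 (SE 0.17, limma adjusted p 0.01). The lowest labelled library stood just above the highest wildtype one. Without wildtype replicate 2 the adjusted p was 0.0856, and without labelled replicates 2 or 3 it was 0.0567 and 0.0746. Of the 10 genes of this adhesion list 1 rose and 1 fell, beside 0.0163% and 0.0651% of all genes. The list was drawn up with results of these data known, so its counts are a description. Itga9, another integrin subunit that binds Vcam1, stood at 98.4 to 117 CPM against 49.5 to 97.9, a log2 difference of 0.54 (unadjusted p 0.0023, limma adjusted p 0.377). Itgb1, the beta subunit both share, differed by -0.01, Fn1 (fibronectin) by 0.39 and Madcam1 by -0.14, none past the threshold. In whole arches, fewer cells of a type and less RNA per cell cannot be told apart for any of these genes.

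Kcna5 (chr6:126532551-126535412), a voltage-gated potassium channel of the Kv1 family, stood at 8.64, 10.1, 10.498, 7.72 and 7.53 CPM in labelled PA2 and at 29.4, 41.9, 18.7, 32.4 and 25.9 CPM in wildtype. The groups were far apart, with means of 8.9 ± 1.35 and 29.7 ± 8.54 CPM, a log2 difference of -1.60 (SE 0.17, limma adjusted p 6.5e-09). The labelled mean was 30% of wildtype, and PA1 means were 3.87 with the label and 3.64 CPM in wildtype. Of the 8 genes of the Kv1 list that were tested, Kcna5 alone passed, beside 0.0651% of all genes on the lower side. Kcna6 differed by 0.29 and Kcna1 by 0.07. Kcna5, like Vcam1, passed under all 23 alternative settings and left-out libraries.

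The other transcription factor genes that passed, Meox1, Nr2f1 and Zfp703, all fell. Meox1 (chr11:101877510-101894374), a homeodomain factor known from somite and muscle development, stood at 1.5, 0.962, 0.831, 1.54 and 0.678 CPM in labelled PA2 and at 4.88, 14.9, 5.68, 6.18 and 2.19 CPM in wildtype. Wildtype replicate 2 was far above the others, but the lowest wildtype library still exceeded every labelled one. The log2 difference was -1.71 (SE 0.33, limma adjusted p 0.0066) and the labelled mean was 16.3% of wildtype. Without wildtype replicate 2 the log2 difference was -1.40 with an adjusted p of 0.0696. The exact permutation p was 0.00794 for Meox1, as it was for Meis2 and Vcam1. Any gene whose groups do not overlap reaches this p, and 1.64% of genes tested did not overlap on the higher and 0.57% on the lower side.

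Nr2f1 (chr13:78188973-78199757), the orphan nuclear receptor COUP-TFI, stood at 23.5, 34.4, 27.6, 28.1 and 20.7 CPM in labelled PA2 and at 47.8, 57, 53.4, 40 and 40.4 CPM in wildtype. Its log2 difference was -0.81 (SE 0.17, limma adjusted p 0.018), and the groups did not overlap. The call was lost without any 1 of wildtype replicates 1, 2 or 3 or labelled replicates 1 or 5, at adjusted p of 0.0583 to 0.132. Its relative Nr2f2 (COUP-TFII) differed by 0.19 (unadjusted p 0.14).

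Zfp703 (chr8:26977325-26981461), a zinc finger repressor of the NET family, stood at 14.8, 15.5, 14.5, 10.52 and 11.1 CPM in labelled PA2 and at 30.6, 25.2, 18.5, 24.6 and 21 CPM in wildtype. The labelled mean was 55.4% of wildtype, with a log2 difference of -0.80 (SE 0.16, limma adjusted p 0.0099). Without wildtype replicate 1 or labelled replicates 4 or 5 the adjusted p was 0.0851, 0.0648 and 0.0684. Zfp503, the other NET family member, stood at 6.4 to 8.55 CPM against 8.85 to 12.3, a log2 difference of -0.42 (unadjusted p 0.018, limma adjusted p 0.574).

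Errfi1 (chr4:150853919-150868892), a feedback inhibitor of the EGF receptor family that is induced by growth factors, stood at 82.2, 72.5, 68.4, 69.4 and 74.7 CPM in labelled PA2 and at 102, 104, 106, 106 and 91.9 CPM in wildtype. The groups did not overlap, and the log2 difference was -0.47 (SE 0.09, limma adjusted p 0.0066). Csn3 (chr5:87925579-87932665), which encodes the milk protein kappa-casein, stood at 4.63, 6.12, 5.21, 4.93 and 6.38 CPM in labelled PA2 and at 1.46, 2.83, 2.51, 2.43 and 2.11 CPM in wildtype. Its log2 difference was 0.99 (SE 0.19, limma adjusted p 0.0055), with 0.89 and an adjusted p of 0.0566 without wildtype replicate 1. PA1 means of Csn3 were higher still, at 10 CPM with the label and 9.12 in wildtype.

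The remaining called transcripts were the lincRNAs E330013P04Rik and AI314278. E330013P04Rik (chr19:60144675-60162591) stood at 3.74, 6.87, 2.64, 3.6 and 3.05 CPM against 12.9, 8.92, 14.3, 7.71 and 6.18 CPM, a log2 difference of -1.14 (SE 0.24, limma adjusted p 0.023). AI314278 (chr7:89426306-89441928) stood at 0.407 to 1.06 CPM against 1.2 to 2.19 CPM, a log2 difference of -0.60 (SE 0.13, limma adjusted p 0.035). E330013P04Rik overlapped between the groups, and both calls were unstable: E330013P04Rik lost its call without 6 of the 10 libraries in turn, at adjusted p up to 0.236, and AI314278 without 7, at up to 0.294. E330013P04Rik did not pass in edgeR (adjusted p 0.316) or DESeq2 (0.319). Prss23, 65855 bases from AI314278, had a log2 difference of -0.43 (unadjusted p 0.0073), and Fzd4, 13172 bases from it and a Wnt receptor gene, had -0.34 (unadjusted p 0.062).

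The same contrast was made in PA1 of the same embryos. In PA1, limma called 0 of 18428 genes (0%) at the adjusted threshold, as did edgeR and DESeq2 on reads recovered from the values. At an unadjusted p under 0.05, 424 genes (2.3%) differed in PA1 and 1420 (7.71%) in PA2. The 12 genes that were lower in PA2 had PA1 log2 differences between -0.22 and 0.25 with a median of -0.03, and the 3 higher genes had 0.03 to 0.24. The test of the difference between the arches called 3 genes (0.0163%), which were Kcna5 at -1.68 (limma adjusted p 9.4e-05), 3110099E03Rik at -2.36 (0.00035) and Meis2 at -0.49 (0.0013). All 12 lower genes had a negative and all 3 higher genes a positive difference between the arches, but this was not past the threshold for the other 12 genes. That difference holds the same PA2 values by which these genes were picked, so its sign is no separate evidence. For Hoxa2 the difference between the arches was 0.78 (limma adjusted p 1). 3110099E03Rik lost this call in edgeR and DESeq2 (adjusted p 1 in each), and when the fit held no other groups than those compared, both Meis2 and 3110099E03Rik had an adjusted p of 0.126. With the embryo as a block E330013P04Rik was also called (-1.39, limma adjusted p 0.0012).

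**Figure D4:**
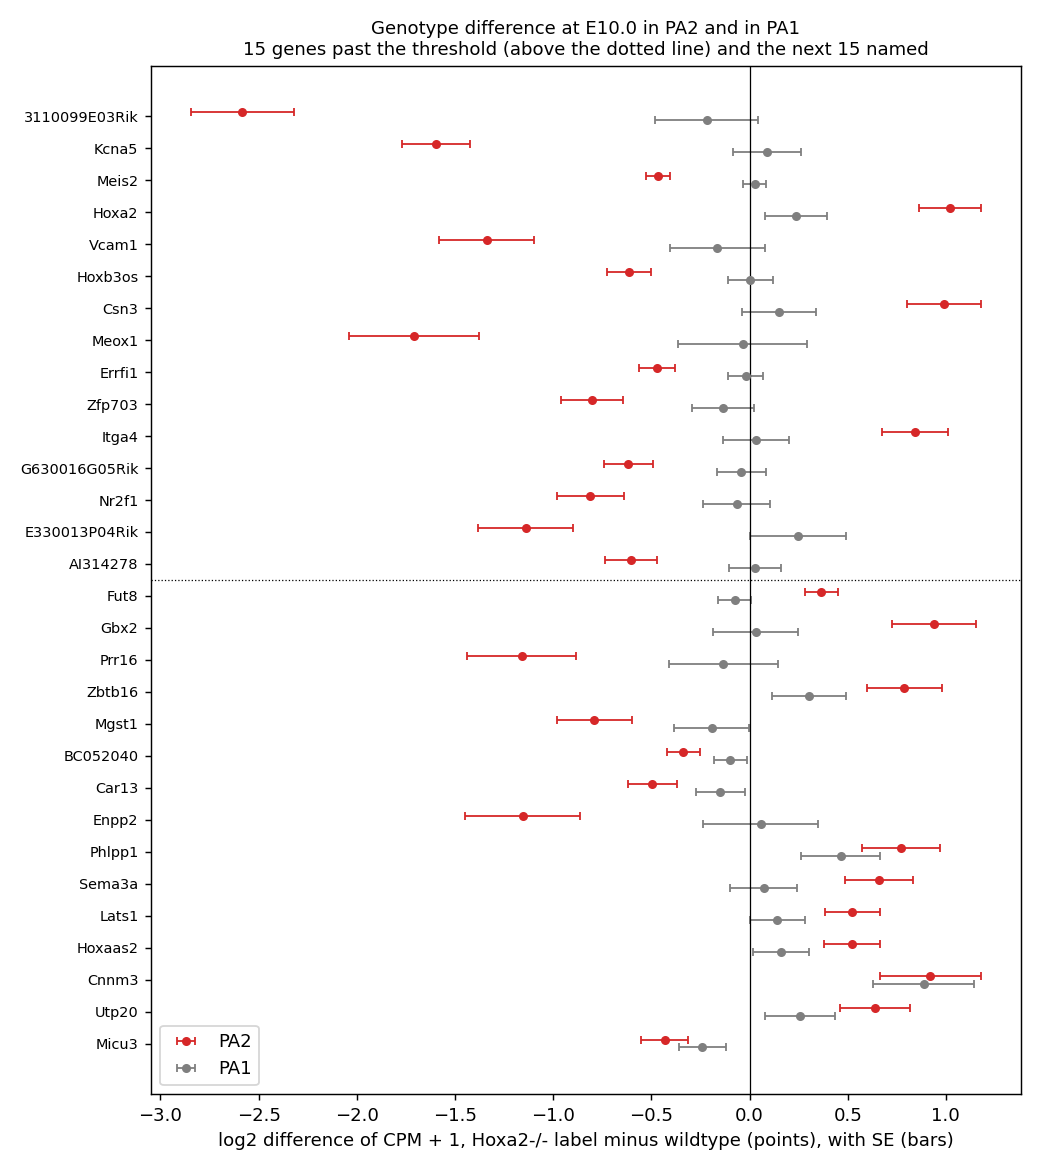
Log2 difference of CPM + 1, labelled Hoxa2-/- minus wildtype at E10.0 (points, with SE as bars), in PA2 and PA1 for the 15 genes past the threshold (above the dotted line) and the next 15 named by p (below it). Among the 15 called genes the PA1 points lie between -0.22 and 0.25, while Cnnm3 lies at 0.92 in PA2 and 0.89 in PA1.

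Whether the same genes distinguish the arches was read in the 6 wildtype libraries of E10.5, none of which is in this comparison. There 280 genes (1.52%) passed between PA2 and PA1, 160 higher (0.868%) and 120 lower (0.651%) in PA2, and 421 passed with the replicate number as a block. All 12 genes that were lower in labelled PA2 at E10.0 were on the PA2 side, with log2 differences of 0.54 to 3.71 and a median of 1.15, and 10 of them passed. The 2 that did not pass were Vcam1 at 0.73 (limma adjusted p 0.48) and AI314278 at 0.54 (0.12). Meis2 stood at 1.06, Kcna5 at 1.50, Meox1 at 1.55, Errfi1 at 0.94, Zfp703 at 1.14, Nr2f1 at 1.17 and 3110099E03Rik at 3.71 toward PA2. Itga4 was lower in PA2 (-1.12), Csn3 did not differ past the threshold (-0.02), and Hoxa2 was higher in PA2 by 5.33. At E9.5, where 12.7% of all genes were called higher in PA2, 11 of the 12 were positive and 8 called. In the fit all 68 libraries share the estimate of each gene's spread. Calls between the arches are therefore not independent of those in PA2 at E10.0, and the same holds for the counts by p that follow. The signs and sizes of the E10.5 differences come from the E10.5 libraries only.

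In the reverse direction, the 160 genes higher in PA2 of wildtype E10.5 were followed in labelled against wildtype PA2 at E10.0. Of these, 117 had a negative and 43 a positive difference; 46 (28.8%) were lower and 3 (1.88%) higher at an unadjusted p under 0.05, against 3.08% and 4.62% of all genes. Their median log2 difference was -0.14 in PA2 and -0.00 in PA1, beside 0.00 for all genes in PA2. Among the 120 genes lower in PA2 of wildtype E10.5, 83 were positive and 37 negative, 10 (8.33%) were higher and 2 (1.67%) lower at that p, and the median was 0.08 in PA2 and 0.01 in PA1. Without wildtype replicate 3 and labelled replicate 4, the libraries high in yolk sac transcripts, the medians were -0.12 and 0.05, with 36 lower and 5 higher among the 160 and 6 higher and 1 lower among the 120.

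The genotype effect of PA2 minus that of PA1 was also read at the other stages, where that division follows the label, so these values are only set side by side. At E10.5, 7 genes (0.038%) passed, 5 of them lower (0.0271%), and 2 of these were among the 12 lower genes; all 12 were negative with a median of -0.63. At E9.5, 2 genes (0.0109%) passed, 1 of them among the 12, and 10 of the 12 were negative. At E9.0 limma called 0 genes (1083 at an unadjusted p under 0.05, or 5.88%), and 6 of the 12 were negative.

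Below the adjusted threshold most differences were small, but some genes named below, among them Prr16, Enpp2 and Pitx1, differed by more than 1 on the log2 scale. At an unadjusted p under 0.05, 852 genes (4.62%) were higher and 568 (3.08%) lower in labelled PA2, with median log2 differences of 0.35 and -0.29. These counts include the called genes. Higher genes were long, with a median exonic length of 7451 bases, and lower genes short, with 2499 bases, against 3598 for all genes tested. With the genes in 4 equal bins by exonic length, 536 were higher and 59 lower in the bin of longest genes, and 61 and 209 in that of shortest genes. The median log2 difference over these bins, from shortest to longest, was -0.04, -0.02, 0.02 and 0.08 in PA2 and -0.04, -0.02, 0.00 and 0.05 in PA1. A fit with the long-gene share of each library as a covariate gave 631 higher (3.42%) and 457 lower (2.48%). In that fit 13 genes passed the adjusted threshold; Nr2f1 (limma adjusted p 0.0829), E330013P04Rik (0.0603) and G630016G05Rik (0.0629) did not, and Fzd4 did. Without wildtype replicate 3 and labelled replicate 4 the counts were 408 (2.21%) and 361 (1.96%), and without wildtype replicate 3 alone 721 genes passed in all.

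The next 15 genes by p, named by a rule of level and symbol, had adjusted p of 0.0547 to 0.292, and 9 were higher and 6 lower. Gbx2, a homeobox gene of hindbrain and arch patterning, stood at 7.14, 11.6, 12.6, 7.58 and 9.5 CPM in labelled PA2 and at 4.81, 4.57, 2.73, 6.18 and 4.62 CPM in wildtype, a log2 difference of 0.94 (limma adjusted p 0.0547). Sema3a, a secreted repulsive guidance cue, stood at 140, 160, 159, 155 and 174 CPM against 96.6, 90.6, 92.2, 97.2 and 122 CPM, a log2 difference of 0.66 (limma adjusted p 0.164). Neither gene's groups overlapped, and PA1 differences were 0.03 and 0.07. Beyond the 15, edgeR called 0 other genes and DESeq2 7, which were Gbx2, BC052040, Fut8, Pitx1, Zbtb16, Car13 and Mgst1. Sema3a and Prr16 were called in limma with the compared groups alone and with the E10.0 libraries alone. Sema3a was also called with the replicate block, and Prr16 with a pseudocount of 5.

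Fut8 (0.37), Zbtb16 (0.79), Phlpp1 (0.77), Lats1 (0.52), Hoxaas2 (0.52), Cnnm3 (0.92) and Utp20 (0.64) were the other genes on the higher side. Lower were Prr16 (-1.16), Mgst1 (-0.79), BC052040 (-0.34), Car13 (-0.49), Enpp2 (-1.16) and Micu3 (-0.43). Prr16 ran from 4.49 to 9.06 CPM against 11.7 to 18.8, and Enpp2, which encodes the lysophospholipase autotaxin, from 17.8 to 52.8 against 46.1 to 102. Cnnm3, a membrane protein gene, differed as much in PA1 (0.89) as in PA2 (0.92), and Phlpp1 by 0.46 in PA1.

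The list of reported Hoxa2 targets held 21 genes tested. At the adjusted threshold 0 rose and 3 fell (Meis2, Meox1 and Zfp703), beside 0.0163% and 0.0651% of all genes. At an unadjusted p under 0.05, 4 were higher and 5 lower, beside 4.62% and 3.08% of all genes. The counts were 4 and 5 without wildtype replicate 3 and labelled replicate 4, and 3 and 7 with the long-gene share as a covariate. Because the list was drawn up with results of these data known, its counts are a description. Pitx1, a homeobox gene of jaw and hindlimb identity that is a PA1 gene in wildtype, stood at 2.45, 3.37, 2.79, 3.09 and 1.22 CPM in labelled PA2 and at 0.507, 0.218, 0.983, 0.208 and 1.41 CPM in wildtype. Labelled replicate 5 lay below wildtype replicate 5, so the groups overlapped, and the log2 difference of 1.12 did not pass (unadjusted p 0.00014, limma adjusted p 0.106; DESeq2 adjusted p 0.0364). Of the other genes in the list, Wnt5a stood at 0.49, Alx4 at 0.63 and Sox9 at 0.40 (unadjusted p 0.0097, 0.015 and 0.022). Six2 differed by 0.17, Lhx6 by 0.47, Lhx8 by 0.43 and Barx1 by 0.58, with unadjusted p of 0.53, 0.076, 0.2 and 0.24.

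Among 17 homeobox and related genes of jaw identity, 0 passed the adjusted threshold in limma, and 3 were higher and 1 lower at an unadjusted p under 0.05 (Pitx1, Alx4 and Prrx2 against Emx2), beside 4.62% and 3.08% of all genes. With the long-gene covariate 2 were higher and 1 lower. Emx2 differed by -0.79 and Prrx2 by 0.25. The median of this list was 0.25 in PA2, beside 0.00 for all genes, and -0.03 in PA1, and 12 of the 17 values were positive. With the sex-linked genes aside, list medians in PA2 ran from -0.18 (heart muscle) to 0.29 (yolk sac endoderm). The skeletal fate list stood at 0.22. The Dlx genes, which set the upper and lower parts of the arches, had 0 of 6 past the adjusted threshold and a median of 0.22. Of these, Dlx2 differed by 0.39 (unadjusted p 0.035). Without wildtype replicate 3 and labelled replicate 4, 0 Dlx genes were higher at an unadjusted p under 0.05, and with the long-gene covariate 1 was.

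The signalling lists are read beside the same shares of all genes, 4.62% higher and 3.08% lower at unadjusted p. Of 27 genes of FGF and ERK feedback, 1 fell at the adjusted threshold (Errfi1), beside 0.0651% of all genes. At unadjusted p 4 were lower, Errfi1 with Fgf20 (-0.38, unadjusted p 0.0035), Fgf15 (-0.62, 0.016) and Fgf4 (-0.58, 0.049), and 1 higher (Flrt3, 0.35, 0.0095). Without wildtype replicate 3 and labelled replicate 4 these counts were 2 lower and 2 higher. The ERK target Etv4 differed by -0.36, Dusp6 by -0.17 and Etv5 by 0.02, none past the threshold. Of 43 Wnt genes 0 passed the adjusted threshold and 3 were higher at unadjusted p, the ligand Wnt5a, the agonist Rspo2 (0.55, 0.0071) and its receptor Lgr5 (0.42, 0.0089). Rspo2 ran from 21 to 27.8 CPM against 10.6 to 23.1. With the long-gene covariate 3 Wnt genes were higher and 2 lower at unadjusted p. The receptor gene Fzd4 (-0.34 without the covariate) passed the adjusted threshold in that fit. BMP genes had 1 higher (Bmpr1b, 0.45) and 1 lower (Id2, -0.24) of 21 at unadjusted p. These counts were 1 and 1 without those 2 libraries and 0 and 0 with the long-gene covariate. Hedgehog genes had 3 higher of 17 (Hhip, Gli3 and Gli2) and Notch genes 2 of 16 (Notch2 and Jag2), of which 0 and 1 were higher without those 2 libraries and 1 and 0 with the long-gene covariate. Retinoic acid genes had 1 higher (Rxra, 0.76, and 0.56 in PA1) and 2 lower (Rdh10, -0.32, and Cyp26a1, -0.81) of 20. The endothelin list had 0 of 11 past either threshold, and the list of Eya genes with their Six-family and Dach partners 1 higher of 10 (Dach2, 0.62, unadjusted p 0.00067).

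Further lists were counted at unadjusted p, beside 4.62% of all genes higher and 3.08% lower (3.42% and 2.48% with the long-gene covariate). Axon guidance and migration genes had 3 higher of 34 (Sema3a, Robo1 at 0.59 and Sema5a at 0.46) and 1 lower (Dcc, -0.45), with the same counts without the 2 libraries high in yolk sac transcripts and 3 higher and 5 lower with the long-gene share as a covariate. Skeletal fate genes had 3 higher of 12 (Col11a1 at 0.54, Sox9 and Sox5), and 2 without those libraries or with the covariate. Ectomesenchyme genes had 3 higher of 17 (Sox9, Dlx2 and Prrx2). Matrix genes had 4 higher of 36 (Fbn1 at 0.63, Adamts4 at 0.60, Lama1 at 0.66 and Fbn2 at 0.40) and 0 without those libraries; with the covariate 0 were higher and 2 lower. The list of COUP-TF, NET and Groucho repressors had 2 of 9 lower at the adjusted threshold (Nr2f1 and Zfp703), beside 0.0651% of all genes. This list too was drawn up with results of these data known, so its counts are a description. At unadjusted p Zfp503 was also lower and Tle4 (0.31) higher, the latter neither without those libraries nor with the covariate. Cell cycle genes had 2 higher of 35 (Cenpf at 0.24 and Cenpe at 0.18), and 0 of 24 immediate early genes passed either threshold.

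**Figure D5:**
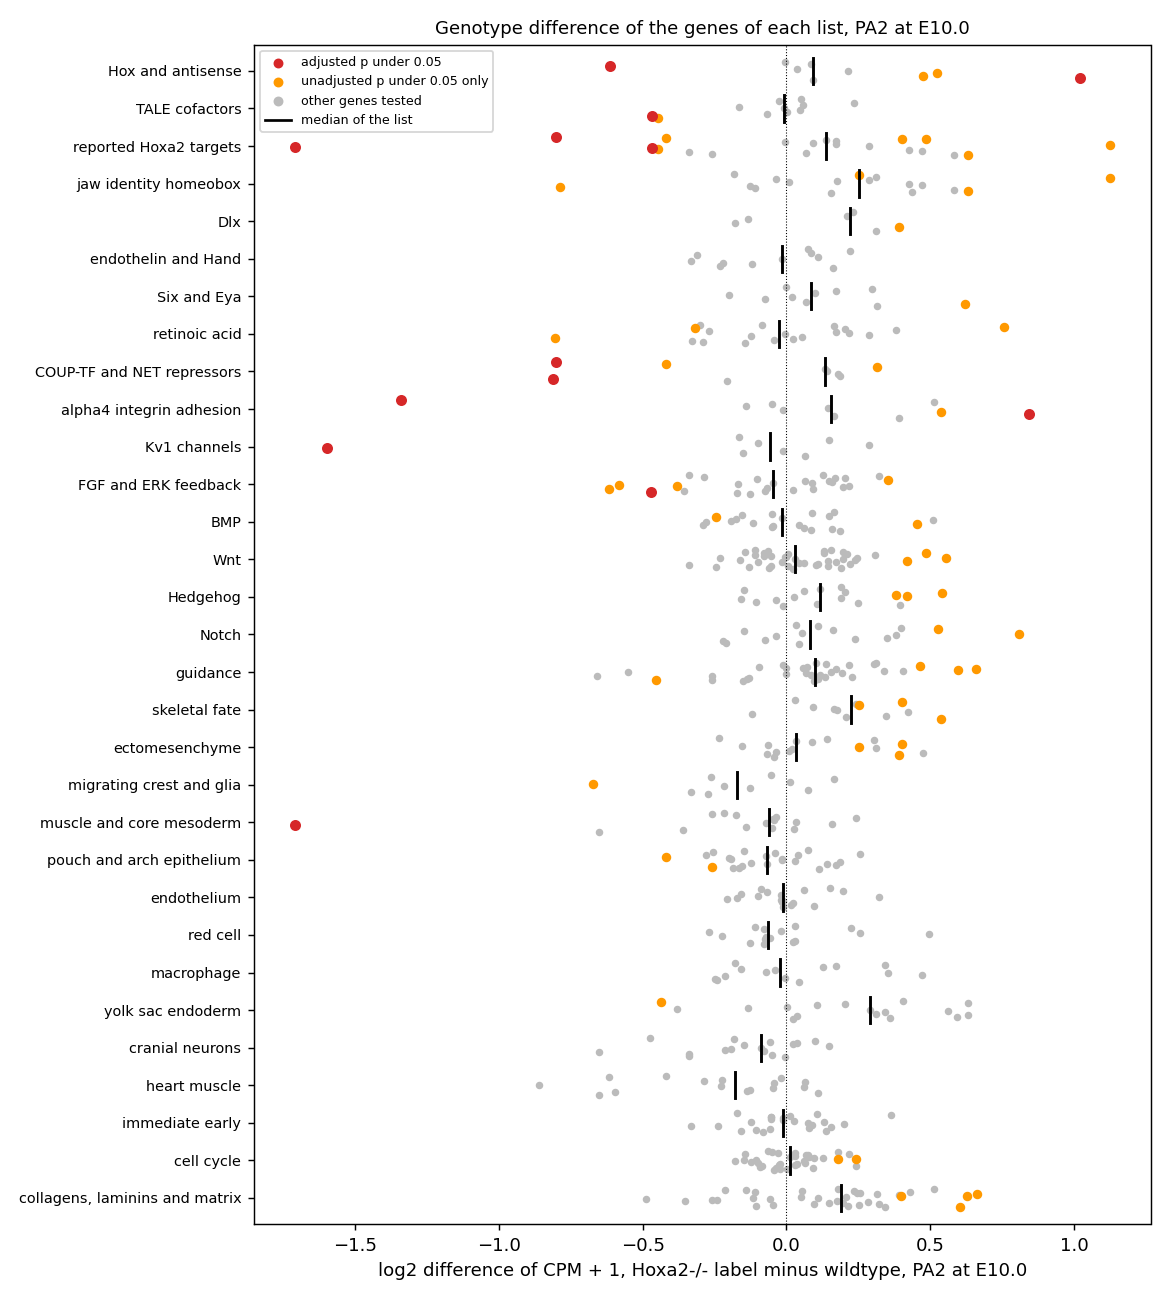
Log2 difference of CPM + 1, labelled Hoxa2-/- minus wildtype in PA2 at E10.0, for each tested gene of each list (points, coloured by threshold), with the list median (bar). Medians are 0.25 for the jaw identity list and 0.29 for the yolk sac endoderm list. The muscle list has a median of -0.06 although Meox1 in it lies at -1.71.

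Markers of other cell types were read in the same libraries. Red cell genes summed to 1226 to 4169 CPM in labelled PA2 and 1863 to 4962 in wildtype, epithelial genes to 698 to 1117 and 874 to 1148, and endothelial genes to 330 to 508 and 276 to 513. Muscle and core mesoderm genes summed to 158 to 206 CPM and 155 to 248, neuronal genes to 119 to 143 and 110 to 191, and migrating crest and glia genes to 54.8 to 86.9 and 73.9 to 93. Heart muscle genes summed to 10.6 to 99.9 CPM and 18.9 to 116, and macrophage genes to 13 to 27.5 and 12.9 to 25.2. The ranges of the 2 groups thus overlapped in every one of these lists.

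Single markers stayed below the adjusted threshold apart from Meox1 in the muscle list. At unadjusted p, 1 of 10 crest and glia genes (Ngfr, -0.67), 2 of 24 epithelial genes (Epcam, -0.26, and Krt5, -0.42) and 1 of 17 yolk sac genes (Trf, -0.44) were lower, and 0 of 18 endothelial, 16 red cell, 14 macrophage, 17 neuronal and 16 heart muscle genes passed in limma. Without wildtype replicate 3 and labelled replicate 4, 0 crest and glia, 0 epithelial, 1 yolk sac and 1 neuronal gene were lower. With the long-gene share as a covariate these counts were 1, 1, 0 and 1, and 4 yolk sac genes and 1 macrophage gene were higher. The yolk sac genes Afp and Apoa1 reached 127 and 43 CPM in labelled replicate 4 and 73.1 and 4.48 CPM in wildtype replicate 3, with medians of at most 0.507 CPM in each group. Without those 2 libraries 9 of the 15 calls remained; Errfi1 (limma adjusted p 0.141), Itga4 (0.0759), Nr2f1 (0.171), G630016G05Rik (0.096), E330013P04Rik (0.356) and AI314278 (0.356) did not pass.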

How the data were processed

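RNA of hand-dissected arches was sequenced, and the authors deposited 1 table of values for 21948 genes in 68 libraries, with column totals of 926298 to 1051959. These deposited values were taken as a signal scaled to about CPM: all came out as whole multiples of 1 read (100% within 0.1 read), so reads were recovered for edgeR and DESeq2. The plan had assumed plain CPM, and its tests were kept. Per the submitters' processing notes, bcl2fastq 2.18, TopHat2 2.1.1, R 3.3.2 and build mm10 were used; the counting program and its use of strand are not given in the sources used here. Symbols and coordinates came from GENCODE M21 (GRCm38), and promoters from RefSeq (GRCm38.p6).

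Groups followed the labels. Genes with at least 1 CPM in at least 3 libraries were kept (18428). limma 3.58.1 in R 4.3.3 was fitted to log2(CPM + 1) over all 68 libraries in 16 groups with a trended prior variance, two-sided, with Benjamini-Hochberg adjustment over the kept genes and a threshold of 0.05. The scale understates changes of low genes. Hoxa2, Meis2, Meox1 and Vcam1 also had an exact permutation test. Embryos are separate samples within a group; no molecular identifiers are described, so floors of 3 reads cover counting error only. PA1 and PA2 libraries of the same number deviated together (correlations of 0.342 to 0.498 in labelled and 0.242 to 0.509 in wildtype embryos, with medians of -0.138 and -0.052 for unlike numbers), so number marks an embryo between arches.

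Alternatives were other pseudocounts, filters, scaling, libraries in the fit, a sex covariate, the block, edgeR 4.0.16, DESeq2 1.42.0 and each library left out. The limma fit was tested on simulated data. Named genes were all called genes, the next 15 by p with a mean of at least 5 CPM and no Gm or Rik symbol, all Hox, TALE and target list members (some given as counts), up to 4 genes of each other list by p, and partners of called genes. Members, lists and rule were chosen with earlier results of these data known.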

Additional observations from a re-analysis of the deposited data

Results flagged for a closer look

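In groups of 5 libraries, a single library stood far from the others, by its gap relative to the group's range, in 5 of the 50 groups of values read; chance alone does so in about 1 in 20 groups. Wildtype replicate 2 stood at 188 CPM of Meis2, above the other wildtype PA2 libraries. For Errfi1, wildtype replicate 5 stood lowest at 91.9 CPM. Labelled replicate 2 stood at 6.87 CPM of E330013P04Rik, above the others of its group. Yolk sac endoderm genes summed to 441 CPM in labelled replicate 4 and to 268 CPM in wildtype replicate 3.

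The genotype difference was tested between the arches and differed for 3 genes, with PA2 minus PA1 at -0.49 for Meis2, -1.68 for Kcna5 and -2.36 for 3110099E03Rik on the log2 scale (limma adjusted p 0.0013, 9.4e-05 and 0.00035).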

How the results depend on the processing

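No call changed direction under any alternative run. Against 15 genes called in PA2 (3 higher, 12 lower), a fit on the E10.0 libraries alone gave 31 (18 higher, 13 lower), the 2 compared groups alone 10 (7 of them among the 15), a pseudocount of 5 gave 23 and the replicate block 5, of which 4 were among the 15 (Kcna5, Vcam1, Hoxa2 and Nr2f1). The other call with the block was Sema3a. Omitting the 2 libraries over 2 times the yolk sac median, a choice made after seeing the data, gave 9. Leaving out 1 library at a time gave 9 to 19 (9 without wildtype replicate 1). edgeR gave 11 and DESeq2 18. Replicate numbers did not pair wildtype with labelled PA2 (correlations of same numbers from -0.155 to 0.213), so the block is a plain alternative there. For the difference between the arches, 3 genes became 1 with only the compared groups, 1 with the E10.0 libraries alone and 5 with a pseudocount of 5, and 3 remained the count without each library. For PA2 against PA1 in wildtype E10.5, 280 became 186 with a filter of 5 CPM, 421 with the replicate block and 197 to 238 with 1 library left out. The PA1 count was 0 in every alternative run. The causes were not tested. Excluding libraries over 5 times the median of the yolk sac or red cell list removed none, so it was not run. Genes near 1 CPM (Hoxb3os, G630016G05Rik, AI314278) rest on few reads; edgeR did not call them and DESeq2 gave them no adjusted p. E330013P04Rik, at higher levels, was called by neither.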
